A study of Mus musculus with 8 samples.

Results

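Kcnq3 and Kcnq5 encode subunits of the Kv7 (KCNQ) potassium channels that carry the M-current of neurons. They were chosen by name, with earlier results of these data known, and make up 2 of the 38553 genes in the deposited expression table. RNA-Seq had been carried out on dorsal and ventral medial entorhinal cortex (MEC), with 4 libraries from each region. The animals of both regions were the same 13 male C57Bl/6JolaHsd mice, 8 weeks old, and the labels name no transgene, other allele or drug. Each brain gave 1 sagittal slice through the right MEC, 400 µm thick, from which dorsal and ventral tissue was microdissected. Tissue from 3 or 4 mice was pooled for each library, so each library stands for a pool and no single animal was measured. Each library is whole tissue, with all layers and all cell types of the slice.

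The M-current is a potassium current that activates slowly near the resting potential and does not inactivate, and it restrains repetitive firing. Its channels are tetramers of KCNQ subunits, in which KCNQ3 commonly joins another member such as KCNQ5, and they need the membrane lipid PIP2 to open. Receptors coupled to Gq, the muscarinic receptors being the classic example, activate phospholipase C beta, which consumes PIP2 and closes the channels. In many neurons M-channels are held at the axon initial segment by ankyrin-G. In the MEC, the integrative properties of layer II stellate cells vary along the dorsoventral axis, and the comparison of the regions asks which genes, ion channels among them, vary with it.

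The regions of the FPKM columns need a remark before any result. FPKM relates the sequenced fragments of a gene to its exon length in kilobases and to all fragments mapped in the library. Libraries were grouped through the deposited comparison table, which gives a mean for each condition but names no region. The paper's supplement lists the mean of its first condition as the dorsal FPKM. The means over the 4 dorsal and 4 ventral columns equalled the condition means within 0.1% for 21861 of 21876 genes. The next best of the 70 possible assignments matched 1273. This match groups the columns, and the names of the regions rest on the supplement. The letter in the column header names the other region for 4 of the 8 libraries (dorsal 2, dorsal 4, ventral 1 and ventral 3, numbered here in column order). Under the headers' regions 1 gene of those tested with limma was called higher in dorsal MEC (D>V) and none higher in ventral MEC (V>D), against 294 and 198 under the assignment used, so the counts and differences below hold for that assignment alone. The libraries held 10780902 to 15359782 fragments assigned to genes.

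Kcnq3 and Kcnq5 are related but separate at the sequence level. Their GENCODE M21 coding sequences (GRCm38) have 2619 and 2856 bases, in 15 coding exons each, and 66.4% of the aligned bases were identical. The longest run of bases that any of their transcripts had in common was 14.

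Kcnq3 transcripts were lower in ventral than in dorsal MEC. Kcnq3 (ENSMUSG00000056258) lies on the minus strand of chromosome 15, where GENCODE M21 places it at chr15:65986387-66286642. Its FPKM was 28.5, 27.5, 27.6 and 26.01 in dorsal libraries 1 to 4, and 19.4, 23.3, 20.2 and 19.4 in ventral libraries 1 to 4. Every dorsal library was above every ventral one, with ventral 2 the nearest to the dorsal range. The means were 27.4 ± 1.03 FPKM in dorsal and 20.6 ± 1.86 FPKM in ventral MEC (SD, n = 4 each), 24.9% lower in ventral MEC. On the log2(FPKM + 1) scale the ventral minus dorsal difference was −0.40 (SE 0.07, 95% interval −0.56 to −0.24, limma adjusted p = 0.0138). Kcnq3 was thus a D>V gene, defined as one with an adjusted p under 0.05 and a mean FPKM at least 20% higher in dorsal MEC, as were 2.15% of the 13674 genes tested.

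Kcnq5 transcripts were lower in ventral MEC by a similar amount. Kcnq5 (ENSMUSG00000028033) lies on the minus strand of chromosome 1, at chr1:21398403-21961942 in GENCODE M21. Its FPKM was 13.9, 14.0, 12.9 and 14.4 in dorsal libraries 1 to 4 and 10.02, 11.3, 8.99 and 10.1 in ventral libraries 1 to 4. The regions did not overlap, and ventral 3 was the lowest library. The means were 13.8 ± 0.623 FPKM in dorsal and 10.1 ± 0.942 FPKM in ventral MEC (SD, n = 4 each), 26.8% lower in ventral MEC. The ventral minus dorsal difference in log2(FPKM + 1) was −0.42 (SE 0.08, 95% interval −0.59 to −0.25, limma adjusted p = 0.0144), which made Kcnq5 a D>V gene as well. Libraries without overlap and higher in dorsal MEC were found for 6.17% of all genes tested.

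**Figure D1:**
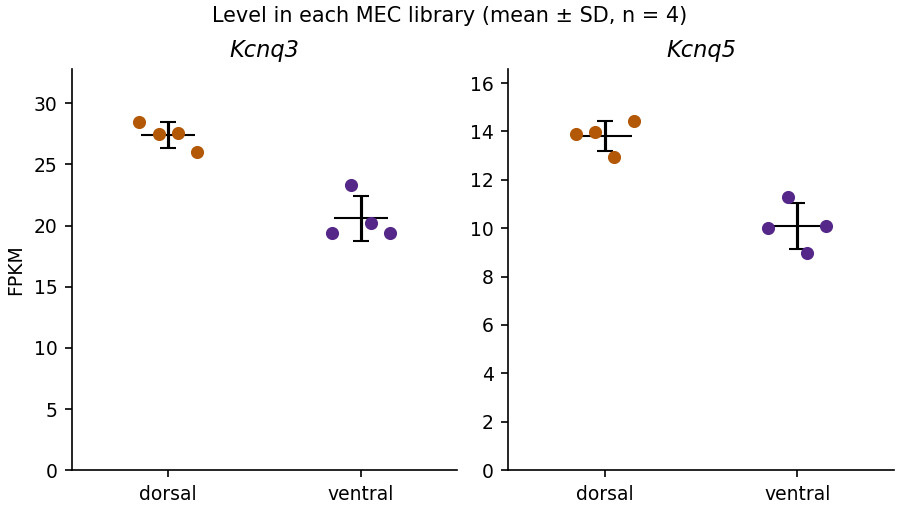
FPKM of Kcnq3 and Kcnq5 (y axis, from 0, with its own range for each gene) in the 4 dorsal and 4 ventral MEC libraries, each point being 1 library and the bars the mean ± SD. For both genes all dorsal points lie above all ventral points.

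Both differences were among the smaller ones of the D>V genes. Of the 294 D>V genes, 80.3% had a larger ventral decrease than Kcnq3 and 71.1% a larger one than Kcnq5, and the median log2 ratio of ventral to dorsal mean FPKM over these genes was −0.58, against −0.41 for Kcnq3 and −0.45 for Kcnq5. By p-value they stood at positions 218 and 229 of all genes tested. In whole tissue, fewer cells that express a gene and less of its RNA in each cell cannot be told apart.

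The calls depended on which libraries and which scaling entered. Under the regions named by the headers, the differences in log2(FPKM + 1) were 0.02 for Kcnq3 and 0.12 for Kcnq5 and neither gene passed (limma adjusted p = 0.998 and 0.962). In the 4 libraries on which header and comparison table agree, they were −0.38 and −0.30 (limma adjusted p = 0.425 and 0.511), in a fit in which no gene of the 13661 tested passed and 1240 had an unadjusted p under 0.05. Rescaling each library to the same total FPKM left −0.35 for Kcnq3 and −0.37 for Kcnq5 but ended both calls (limma adjusted p = 0.0779 and 0.0514). Leaving out dorsal 2 or ventral 1 ended them too, with adjusted p between 0.0505 and 0.0547. Quantile normalization, another scaling, kept both calls, with −0.38 for Kcnq3 and −0.41 for Kcnq5 (limma adjusted p = 0.0202 and 0.0145). With edgeR on the estimated fragments, a test added after the data had been seen, the log2 fold changes were −0.41 for Kcnq3 (adjusted p = 0.00141) and −0.45 for Kcnq5 (adjusted p = 0.000304), where 3.38% of 15366 genes were D>V.

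**Figure D2:**
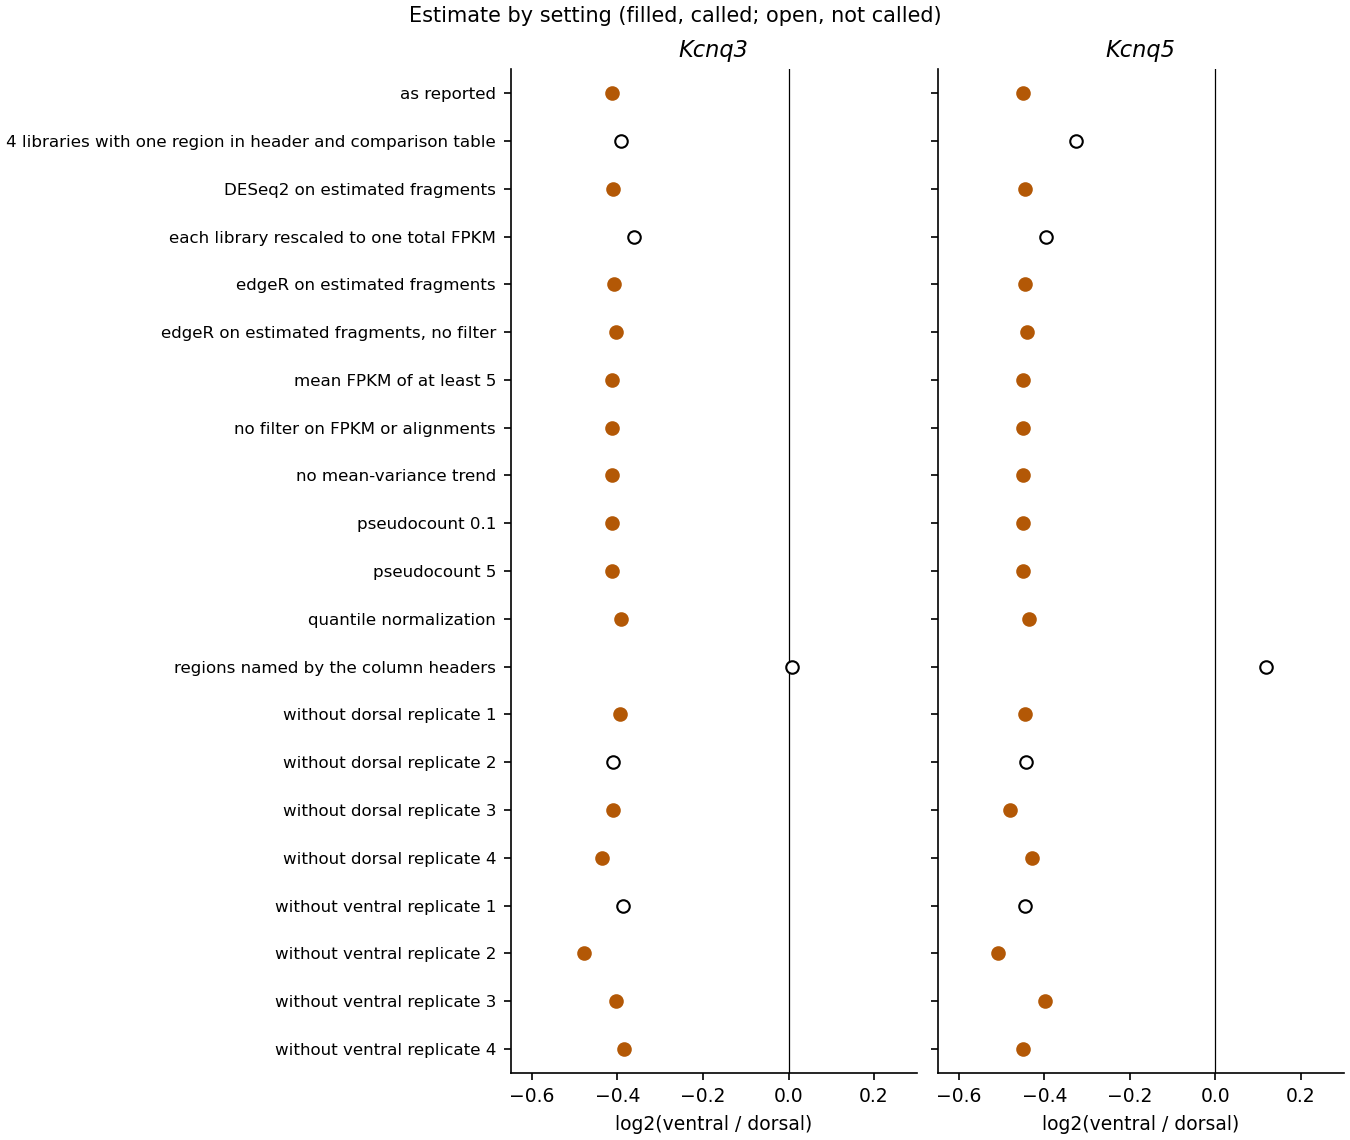
Log2 ratio of ventral to dorsal expression (x axis) of Kcnq3 and Kcnq5 under each way of processing the data (y axis); filled points were called D>V and open points were not. All estimates lie below 0 for both genes except under the regions named by the column headers, and the open points are those of the headers, the 4 agreeing libraries, the rescaling to a common total, and the fits without dorsal 2 or ventral 1.

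Kcnq1, the cardiac and epithelial member of the family, had 15 fragments over all libraries and none in 2 of them, and a count of 0 allows up to 3 fragments in a library. It was too low for the limma test, and without any filter it was not called by limma (adjusted p = 0.991) or edgeR (adjusted p = 0.977).

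The KCNE genes, whose small proteins associate with KCNQ channels, were all too low for the limma test. Kcne1l averaged 0.722 FPKM in dorsal and 0.817 FPKM in ventral MEC, and Kcne4 0.362 and 0.202 FPKM, and edgeR called neither (adjusted p = 0.870 and 0.262). Kcne2 averaged 0.137 and 0.0639 FPKM, and Kcne3 0.159 and 0.396 FPKM. Kcne1 was listed at 0 in all 8 libraries.

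Kcnq3 was the more abundant of the pair per kilobase. Mean FPKM over the 8 libraries was 24.0 for Kcnq3 and 11.9 for Kcnq5, and 0.0408 for Kcnq1. Kcnq3 was above Kcnq5 in 8 of 8 libraries, which came from 4 groups of mice. The position of Kcnq3 above Kcnq5 holds per kilobase of the gene model that the authors used. The deposited values imply 3.10 kb of exon per FPKM unit for Kcnq3 and 7.50 kb for Kcnq5, and Kcnq5 had more fragments than Kcnq3 in 8 of 8 libraries, with 9271 against 7657 in total. GENCODE M21 gives Kcnq3 a coding transcript of 11824 bases that extends past the 3′ end of the deposited span, chr15:65995171-66286224. The order of the pair under that longer model was not tested. Within a gene, both regions were measured over the same model.

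The deposited span of Kcnq5 is shared by 3 rows of the table, among them AC125483.1 (Gm26580 in GENCODE M21), a noncoding gene on the opposite strand whose exon overlaps the 5′ end of Kcnq5. Its FPKM was 3.94, 4.53, 2.88 and 4.14 in dorsal and 1.81, 3.15, 1.73 and 1.76 in ventral libraries. AC125483.1 was not called (limma adjusted p = 0.0523). Its fragments came to between 5.60% and 10.6% of those of Kcnq5, and whether the protocol kept strand is not stated, so fragments in the overlap cannot be told apart by strand.

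Relative to the rest of the family, both genes took a smaller part of the KCNQ transcripts in ventral MEC. The share of Kcnq3 in the summed KCNQ FPKM was 30.04, 29.5, 29.4 and 26.3% in dorsal and 23.6, 26.3, 23.2 and 23.2% in ventral libraries. The lowest dorsal share, in dorsal 4, and the highest ventral share, in ventral 2, nearly met at 26.35 and 26.31%. The mean fell by 4.74 percentage points (exact permutation test, two-sided, p = 0.0286, adjusted p over 6 tests 0.0343). The exact p was 0.0571 when any library other than dorsal 4 was dropped, although the regions then still did not overlap. With 7 libraries the smallest exact p is 0.0286 and the next possible one is 0.0571. The share of Kcnq5 was 14.6, 14.9, 13.8 and 14.6% in dorsal and 12.2, 12.7, 10.3 and 12.1% in ventral libraries. Its mean fell by 2.66 percentage points, with no overlap of the regions (exact permutation p = 0.0286, adjusted p 0.0343). Under the headers' regions the difference in share was −0.204 percentage points for Kcnq3 and reversed to 0.876 for Kcnq5 (exact permutation p = 0.886 and 0.514). The smallest p that 4 against 4 libraries can give is 0.0286.

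The summed KCNQ FPKM was 93.4 to 98.7 in dorsal and 82.4 to 88.7 in ventral libraries, a log2 difference of −0.16 (exact permutation p = 0.0286, adjusted p 0.0343). Under the headers' regions it changed sign, to 0.023 (exact permutation p = 0.743). After rescaling to a common total FPKM this difference was −0.11 (exact permutation p = 0.0857). Shares within a library do not change with such rescaling. Kcnq3 and Kcnq5 are themselves part of the sum and of the shares. The tests of the sum and of the shares are therefore not independent of the differences of both genes given above.

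**Figure D3:**
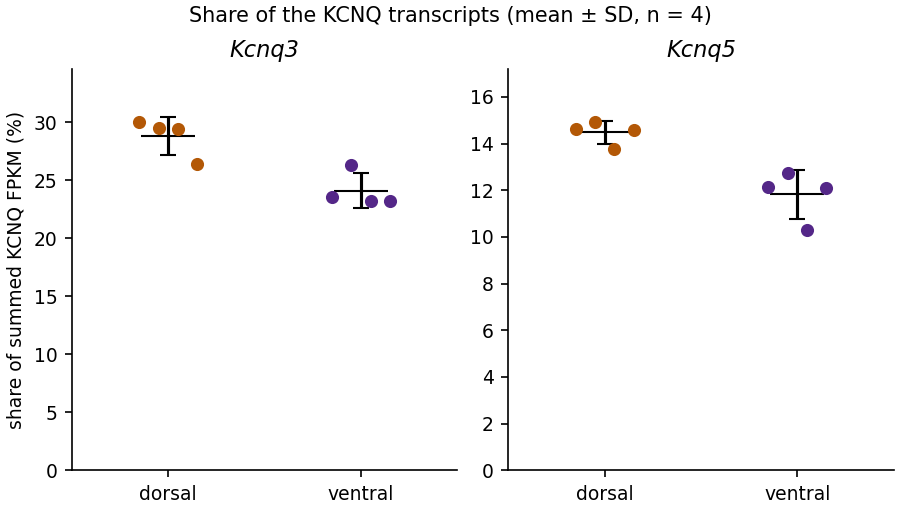
Share of Kcnq3 (left) and Kcnq5 (right) in the summed KCNQ FPKM (y axis, percent, from 0) in the 4 dorsal and 4 ventral libraries, each point being 1 library and the bars the mean ± SD. The dorsal and ventral shares of Kcnq3 nearly meet at 26.35 and 26.31%, and those of Kcnq5 lie apart.

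The proportion of Kcnq3 to Kcnq5 did not differ detectably between the regions. There were 1.81 to 2.13 FPKM of Kcnq3 for each FPKM of Kcnq5 in dorsal libraries and 1.92 to 2.25 in ventral libraries, and the ranges overlapped. The log2 ratio averaged 0.99 in dorsal and 1.03 in ventral MEC, a difference of 0.04 (SE 0.07, exact permutation p = 0.657, adjusted p 0.657). Its sign turned without dorsal 4 (−0.0087) or without ventral 3 (−0.0096).

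The difference was also measured relative to neuronal transcripts. None of the 7 pan-neuronal markers tested was called, and their median difference was −0.15, against −0.01 over all genes tested. The log2 level of Kcnq3 relative to these markers was −3.14, −3.24, −3.25 and −3.34 in dorsal and −3.62, −3.36, −3.61 and −3.65 in ventral libraries. The dorsal libraries were all higher, and the difference was −0.32 (exact permutation p = 0.0286, adjusted p 0.0343). For Kcnq5 the relative level was −4.17 to −4.34 in dorsal and −4.41 to −4.78 in ventral libraries, a difference of −0.35 (exact permutation p = 0.0286, adjusted p 0.0343). For both genes the exact p was 0.0571, the step next above the smallest, when any of the dorsal libraries was dropped. The regions did not overlap in those sets either. Under the headers' regions the differences changed sign, to 0.0056 and 0.11 (exact permutation p = 0.971 and 0.571). Against 6 glutamatergic markers the differences were −0.30 for Kcnq3 (exact permutation p = 0.0857) and −0.33 for Kcnq5 (exact permutation p = 0.0571).

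The genes of the pathway that closes M-channels gave no D>V call with limma. Of 11 genes tested among Gq-coupled receptors, Gq alpha subunits and phospholipase C beta enzymes, none was D>V and 2 were V>D, where 1.45% of all genes were V>D, and the median difference over the 11 genes was 0.11. Htr2c, a serotonin receptor and 1 of these 2, had 2.18 ± 0.268 FPKM in dorsal and 3.18 ± 0.132 FPKM in ventral MEC (SD, n = 4 each, limma adjusted p = 0.0391). The muscarinic receptor most tied to the M-current, Chrm1, had 22.8 FPKM in dorsal and 24.8 FPKM in ventral MEC and did not pass (limma adjusted p = 0.474). Plcb1, the most abundant enzyme of the list at 108.6 FPKM in dorsal and 88.9 FPKM in ventral MEC, did not pass with limma (adjusted p = 0.126) but was D>V with edgeR (adjusted p = 0.0411). Chrm5, another muscarinic receptor, was below the limit for testing with 0.129 to 0.351 FPKM in dorsal and 0.998 to 1.23 FPKM in ventral libraries. It was V>D in the edgeR test (adjusted p = 0.000183), where 2.96% of all genes were V>D, on 3 to 35 fragments per library.

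Among the genes for PIP2 supply and channel-binding proteins limma made 1 call. None of the 6 genes tested for synthesis and turnover of PIP2 was called, with a median difference of 0.01. Among 13 tested proteins that bind or modify KCNQ channels, 1 was D>V and none V>D, where 2.15% and 1.45% of all genes were, with a median of 0.00386. The called gene was Prkcb, a protein kinase C that phosphorylates KCNQ channels under muscarinic control, at 217.8 ± 3.89 FPKM in dorsal and 178.6 ± 3.31 FPKM in ventral MEC (SD, n = 4 each, log2 ratio −0.29, limma adjusted p = 0.0182). Its relative Prkca was at 49.8 ± 6.09 and 40.4 ± 5.04 FPKM and was called with edgeR (adjusted p = 0.00376) but not with limma (adjusted p = 0.194).

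None of the 7 axon initial segment genes was called, although 6 of the 7 estimates were below 0 and their median was −0.12. Ank3, the gene of ankyrin-G, had 277.3 FPKM in dorsal and 248.4 FPKM in ventral MEC (limma adjusted p = 0.434), and Scn8a, a sodium channel of the same site, had 56.7 and 47.6 FPKM (limma adjusted p = 0.219). The transcription factors Sp1 and Rest, known to act on KCNQ promoters, did not pass, with a median difference of 0.00097.

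**Figure D4:**
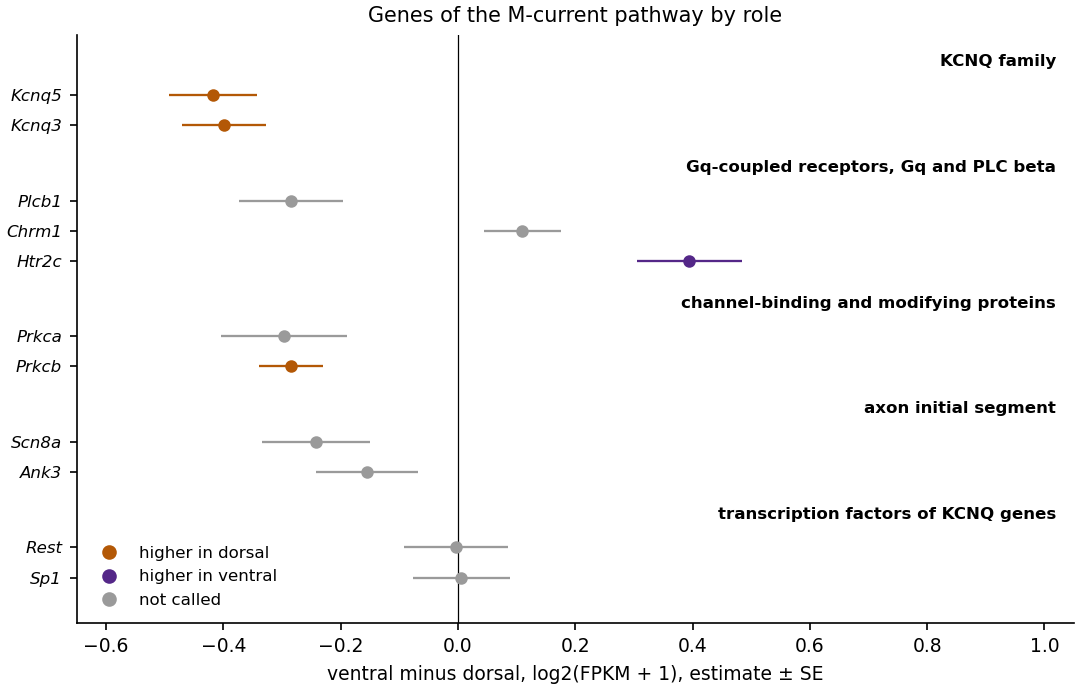
Ventral minus dorsal difference in log2(FPKM + 1) (x axis, point with SE bar) of the genes of the M-current pathway that the text names and that were tested (y axis), grouped by role and coloured by call. Kcnq3, Kcnq5 and Prkcb are called higher in dorsal MEC and Htr2c is called higher in ventral MEC.

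Among potassium channel genes at large, Kcnq3 and Kcnq5 were 2 of 8 that were D>V. The table held 95 genes with a symbol starting in Kcn, 64 of them tested, of which 8 (12.5%) were D>V and 4 (6.25%) V>D, against 2.15% and 1.45% of all genes, and the median difference over the 64 genes was −0.03. Without Kcnq3 and Kcnq5, 6 of 62 were D>V. With edgeR 13 Kcn genes were D>V and 6 V>D, where 3.38% and 2.96% of the 15366 genes tested with edgeR were. Kcna1, a low-threshold Kv1 channel of axons, fell by 0.52 on the log2(FPKM + 1) scale, from 42.9 ± 2.23 to 29.6 ± 1.13 FPKM. The ether-à-go-go family members Kcnh5 and Kcnh7 fell by 0.63 and 0.57, and Kcnk1, a background channel, fell by 0.47. Kcnj10, an inward rectifier of astrocytes and oligodendrocytes, had the largest decrease of the 64 on this scale, from 49.8 ± 2.43 to 31.0 ± 2.45 FPKM.

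The 4 V>D channel genes had the following levels. Kcnd3, a pore subunit of A-type channels, was at 14.0 ± 1.04 FPKM in dorsal and 18.8 ± 0.804 FPKM in ventral MEC, and its auxiliary subunit Kcnip2 at 8.63 ± 0.499 and 11.2 ± 0.669 FPKM. Kcnn3, a calcium-activated SK channel, was at 5.39 ± 0.290 and 7.04 ± 0.555 FPKM, and Kcng1, a modifier of Kv2 channels, at 5.57 ± 0.867 and 10.1 ± 1.09 FPKM (SD, n = 4 in each case). By mean FPKM, Kcnq3 was 16th and Kcnq5 31st of the 64, and by difference, from the lowest, Kcnq5 was 8th and Kcnq3 10th. Exons of Kcnd3, Kcnh7 and Kcnk1 overlap those of another gene.

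**Figure D5:**
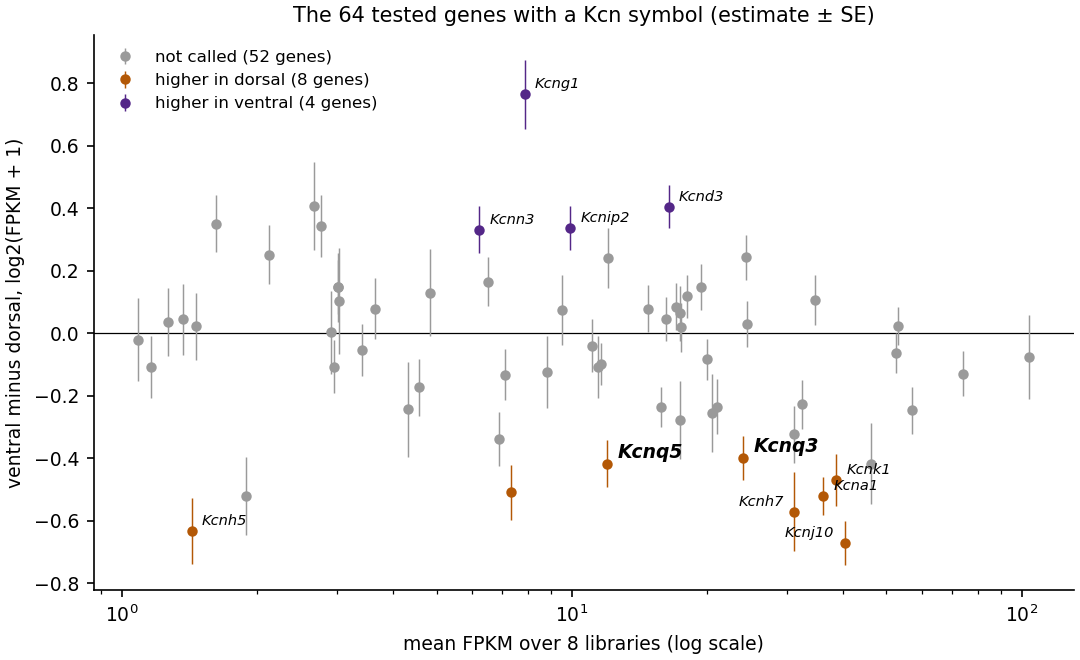
Ventral minus dorsal difference in log2(FPKM + 1) (y axis, point with SE bar) against mean FPKM over the 8 libraries (x axis, log scale) for the 64 tested Kcn genes, coloured by call, with the called genes that the text describes named. Kcnq3 and Kcnq5 lie among the 8 genes called higher in dorsal MEC.

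Cell type markers moved between the regions as well. All 8 oligodendrocyte markers were D>V with limma, where 2.15% of all genes tested were D>V and 1.45% V>D. The median difference of these markers was −0.84, and none was at 0. Their summed level was 851 to 1126 FPKM in dorsal and 468 to 615 FPKM in ventral libraries. Their part in the differences of Kcnq3 and Kcnq5 was not tested. Of 6 GABAergic markers, Pvalb was D>V at 15.7 ± 2.15 FPKM in dorsal and 6.63 ± 0.961 FPKM in ventral MEC, and Sst was V>D at 109.5 ± 29.4 and 220.4 ± 41.1 FPKM, while the summed level was 231 to 301 and 308 to 398 FPKM with Sst and 149 to 155 and 136 to 148 FPKM without it. Of 6 glutamatergic markers 1 was called, Slc17a6, which was D>V at 10.8 ± 0.255 and 7.21 ± 0.474 FPKM (SD, n = 4 in each case). No astrocyte (6), microglia (5), endothelial (3) or oligodendrocyte precursor (4) marker tested was called with limma. The 4 precursor markers all lay above 0 (median 0.23), and edgeR called the precursor marker Pdgfra (adjusted p = 0.0142) and the astrocyte marker Gfap (adjusted p = 0.0371) V>D.

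The tissue carried the markers of MEC layer II. Reln, a marker of stellate cells, had 31.7 ± 2.62 FPKM in dorsal and 35.8 ± 3.52 FPKM in ventral MEC (SD, n = 4 each) and did not pass (limma adjusted p = 0.368). Wfs1, which marks layer II pyramidal cells, was D>V at 76.6 and 52.5 FPKM, and Calb1, known from the same cells, was V>D at 4.57 and 7.85 FPKM. Of 4 tested markers of dentate gyrus, CA1 and subiculum, 3 were V>D with limma, where 1.45% of all genes were. Of the 3, Nts is also known from the MEC itself, and the fourth marker, Prox1, lay at −0.29 and was D>V with edgeR. The summed level of the list was 14.0 to 18.7 FPKM in dorsal and 23.8 to 30.9 FPKM in ventral libraries. Most of this sum was Fn1, at 10.8 ± 1.67 FPKM in dorsal and 16.6 ± 2.93 FPKM in ventral MEC (SD, n = 4 each). The part of these lists in the differences of Kcnq3 and Kcnq5 was not tested.

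Some genes followed Kcnq3 or Kcnq5 over the 8 libraries more closely than they followed each other. The genes most like Kcnq3, by Pearson's r of log2(FPKM + 1) among all genes tested, were Neat1 (r = 0.975), a nuclear noncoding RNA, Gamt (0.972), an enzyme of creatine synthesis, Epha4 (0.972), an ephrin receptor, 1190002N15Rik (0.971) and Vav3 (0.969), a guanine nucleotide exchange factor. All 5 were D>V. Those most like Kcnq5 were Erbb2ip (0.987), a scaffold protein, Mctp2 (0.987), Gria4 (0.986), an AMPA receptor subunit, Rora (0.985), a nuclear receptor, and A830036E02Rik (0.984), of which Mctp2 and A830036E02Rik were not called. Kcnq3 and Kcnq5 correlated at 0.927, which placed Kcnq5 94th in the list of Kcnq3 and Kcnq3 134th in that of Kcnq5. These values describe 8 libraries that share a difference between regions.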

How the data were processed

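The submitters' notes and the study's methods name CASAVA 1.8, TopHat 2.0.8 and Cuffdiff 2 with Ensembl release 73 (GRCm38). The deposited FPKM values were scaled between libraries by the authors' Cuffdiff run, and the deposited estimated counts of fragments are that program's. The fragment table numbers its libraries without sample names, and they were joined to the FPKM columns by equal FPKM, which held for all genes. The authors' own fold changes, p-values and q-values were not used, and 2 columns of scaled per-library fragments were not used.

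The regions were compared by limma 3.58.1 (R 4.3.3), with a trended prior variance and Benjamini-Hochberg adjustment, on log2(FPKM + 1) of the genes that had the authors' status OK (10 or more alignments) and averaged 1 FPKM or more. Calls required an adjusted p under 0.05 and regional means that differed by 20% or more, a log2 ratio of 0.263. Fold changes on this scale understate those of low genes. Single values were compared over samples by exact permutation. edgeR 4.0.16 and DESeq2 1.42.0 on rounded estimated fragments were added after the data were seen. limma and edgeR, but not DESeq2, were tested on simulated data. Python 3.11.15, NumPy 2.4.6, SciPy 1.17.1, pandas 2.3.3 and matplotlib 3.10.9 were used. How far totals of 10780902 to 15359782 fragments limit precision was not tested.

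The members and gene lists were chosen with earlier results of these data known. Genes named are Kcnq3 and Kcnq5, the other KCNQ and KCNE genes, list members that were called, the called Kcn genes, and the 5 genes most like each member. AC125483.1 and the other list members named were picked after values were seen. Alternatives covered pseudocounts of 0.1 and 5, filters, scaling, trend, the columns' regions and leaving out each library. Some genes of these lists and the coding sequences are not reported here.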

Additional observations from a re-analysis of the deposited data

Results flagged for a closer look

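Dixon's criterion for 4 libraries was applied to 18 groups of values, each a quantity of the KCNQ genes in 1 region, and picked 2 of them, where chance picks about 1 in 20. The share of Kcnq3 in the summed KCNQ FPKM was 26.3% in ventral 2, above the 23.2 to 23.6% of the other ventral libraries. In the same library the log2 level of Kcnq3 relative to pan-neuronal markers was −3.36, above the −3.65 to −3.61 of the others. Ventral 2 therefore lies nearest to the dorsal range in Kcnq3, and without it the Kcnq3 difference in log2(FPKM + 1) was −0.46.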

How the results depend on the processing

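No paired analysis was possible because the sample labels carry no replicate numbers, the numbers in the column headers fall within 1 region under the assignment used (1 and 2 dorsal, 3 and 4 ventral), and the mouse group behind each column is not given. Across the alternatives for 11 quantities, 91 values kept direction and side of the threshold (or moved little), 27 kept the direction but lost the threshold, 18 counts moved by over 1.5 times and 9 reversed. The 91 include the order of the KCNQ levels, which leaving out a library could not change. Exact permutation tests that lost the threshold with a library left out moved by the smallest step of p. The causes of the other changes were not tested.

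Under the regions of the column headers the difference was 0.016 for Kcnq3, 0.12 for Kcnq5, 0.023 for the summed KCNQ FPKM, −0.204 points for the Kcnq3 share, 0.876 points for the Kcnq5 share, −0.11 for the Kcnq3 to Kcnq5 ratio, and 0.0056 (Kcnq3) and 0.11 (Kcnq5) relative to pan-neuronal markers; 1 gene was D>V and 0 were V>D with limma, with 721 at an unadjusted p under 0.05. The 4 agreeing libraries gave −0.38 and −0.30, with 0 genes D>V and 0 V>D (1240 unadjusted). Rescaling to a common total FPKM gave −0.35 for Kcnq3, −0.37 for Kcnq5, −0.11 for the summed FPKM, and 195 genes D>V against 201 V>D, in place of 294 and 198. With glutamatergic markers as the reference the differences were −0.30 and −0.33. edgeR called 520 genes D>V and 455 V>D, edgeR without a filter 613 and 567, and DESeq2 518 and 443.

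Leaving out each library in turn gave −0.46 to −0.37 for Kcnq3 (limma adjusted p 0.00521 to 0.0521), −0.47 to −0.37 for Kcnq5 (0.01004 to 0.0547), 157 to 341 genes D>V and 91 to 191 V>D. It gave −0.17 to −0.14 for the summed KCNQ FPKM, −5.56 to −4.33 points for the Kcnq3 share, −2.96 to −2.15 points for the Kcnq5 share, −0.0096 to 0.071 for the Kcnq3 to Kcnq5 ratio (−0.0087 without dorsal 4), and −0.38 to −0.28 (Kcnq3) and −0.41 to −0.29 (Kcnq5) relative to pan-neuronal markers. The calls of Kcnq3 and Kcnq5 were lost without dorsal 2 or ventral 1. Because Kcnq3 was above Kcnq5 in 8 of 8 libraries, leaving out 1 library could not change that order.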
